A study of Ovis aries with 13 samples.

Results

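Genes of the mitochondrial ATP synthase, of the respiratory chain and of the ADP carrier SLC25A5 were followed in the left ventricle of the sheep heart across birth. A probe was a member if its gene name in the array files, or the gene that its RefSeq identifier names, begins with ATP5, with COX and a digit, with UQCR or with NDUF, or is SLC25A5. The rule found 9 of the 15008 probes on the array, for 8 of the 1013 genes that could be named. They were 5 ATP synthase probes of 4 genes (ATP5MC1, ATP5MC2, ATP5PD and ATP5PO), 1 probe of SLC25A5, 1 of complex I (NDUFA12), and 2 of the COX group (COX5A of complex IV and its assembly factor COX15), while 0 probes matched UQCR of complex III. A gene's RefSeq identifier named 6 of the members and the gene name in the files alone named 3, which were ATP5PD, COX5A and COX15. A further 2 probes carry the gene ID of ATP5MC1 only as a name, with no RefSeq identifier. They are shown beside the members and are in none of the counts. The RefSeq table lists 47 NDUF genes and 17 ATP5 genes for sheep, so the array's named probes cover a small part of these complexes, and 13352 of its 15008 probes had no gene name here.

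The newborn group held 7 lambs at postnatal day 1, taken on the day of birth, 4 females and 3 males. The fetal group held 6 fetuses at gestational day 142, 2 females and 4 males. The labels name no treatment, breed or genotype, and each array holds RNA of the frozen left ventricle of 1 animal. The labels' animal numbers are shared by some animals, 9 of them sharing 4 numbers under different letters, and newborn 2, newborn 4 and newborn 5 share one. The labels do not say what a shared number stands for.

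The respiratory chain of the inner mitochondrial membrane passes electrons from NADH and other carriers to oxygen and pumps protons as it does so. The ATP synthase, also called complex V, lets the protons flow back through a turning ring of c subunits, and this rotation drives the making of ATP. Carriers such as SLC25A5 then exchange the ATP for ADP of the cytosol. Heart muscle depends on this system more than most tissues, and around birth it turns from mainly glucose and lactate towards fatty acids as fuel.

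The probes are 60 bases long, and sequences of some of those discussed are printed below. No probe was aligned to a transcript, so exon and strand were not checked. The files give no genome position for any of the 11 probes, which they mark as unmapped. The ATP5MC1 probe A_70_P030367 runs across the end of the reading frame: 12 codons without a stop lead to the stop codon TGA, shown in capitals, which starts at position 39 of the probe counted from its 5′ end. The SLC25A5 probe is printed whole because its gene has that probe alone.
ATP5MC1 A_70_P030367: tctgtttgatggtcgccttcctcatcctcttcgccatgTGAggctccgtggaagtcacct
SLC25A5 A_70_P032816: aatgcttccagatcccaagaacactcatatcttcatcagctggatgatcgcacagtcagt

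For 3 of the 9 member probes the letters hold AATAAA or ATTAAA, the hexamers that mark the end of most messages, when read in the direction listed, which was the only direction searched. Of all 15008 probes, 8.07% hold either, 5.63% AATAAA and 2.63% ATTAAA. The stretch around the hexamer, in capitals, is given for these 3 because the other ATP5MC1 probe and the ATP5MC2 probe differ in how they changed between the groups.
ATP5MC1 A_70_P030366, bases 23 to 52: ctaacctttaccATTAAAcacaatgtttct
ATP5MC2 A_70_P051026, bases 32 to 60: agaaggaagacaAATAAAtactgtattaa
ATP5PO A_70_P013451, bases 32 to 60: acttggagcgacAATAAAatgcttcctga

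The probes that carry the ATP5MC1 gene ID as a name only are offset by a single base from each other and share a run of 59 bases. Their first 30 bases are shown with the shared run in capitals. The longest run either shares with the member probes of ATP5MC1 is 7 bases on the same strand and 6 on the other.
ATP5MC1 gene ID, A_70_P016886: AATCACACCCTGCAGTCTGAGCATTCTGTA
ATP5MC1 gene ID, A_70_P016887: tAATCACACCCTGCAGTCTGAGCATTCTGT

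The ATP5PD probe is shown because of an open run of codons on its reverse complement. Its reverse complement holds an ATG, written CAT in capitals below, followed by codons without a stop up to the end of the probe, 15 in all with the ATG. Such a run of at least 15 codons is found on the reverse complement of 11.9% of all 15008 probes. Its length alone therefore does not settle the strand. The codons were not set against the ATP5PD protein. Should the probe lie opposite to the message, its values would not report ATP5PD.
ATP5PD A_70_P001871: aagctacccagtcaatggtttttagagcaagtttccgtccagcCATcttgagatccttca

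ATP5MC1, which encodes a c subunit of the ATP synthase ring, was higher in newborn than in fetal ventricles on both of its member probes, by 1.51-fold and 1.61-fold. The 1.61-fold call was lost when newborn spots that the scanner software marked as outliers were kept (limma adjusted p = 0.0529). No other member probe passed the test in either direction. The SLC25A5 probe differed by a similar amount, 1.70-fold, and missed the threshold. ATP5MC2, which in mammals encodes the same mature c subunit behind another leader peptide, differed in the other direction, and did not pass. In all, 2 of the 9 member probes were called higher and 0 lower in newborn ventricles (limma, adjusted p under 0.05). Of all 10255 probes tested, 12% were called higher and 11.1% lower, 23.1% in either direction. At an unadjusted p under 0.05 the members passed on 4 of 9 probes, against 37.8% of all probes tested. The change was positive for 7 of the 9 members, the ATP5PD probe of untested strand among them, and for 53.5% of all tested probes. The median log2 change was 0.27 over the members and 0.03 over all tested probes. None of the 9 members had groups that did not overlap (0 higher and 0 lower), while among all tested probes 3.38% lay wholly higher and 3.51% wholly lower in newborn ventricles. All 9 members were tested, each well above background on all 13 arrays and saturated on none. In pieces of tissue, fewer cells of a type and less RNA per cell cannot be told apart.

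**Figure D1:**
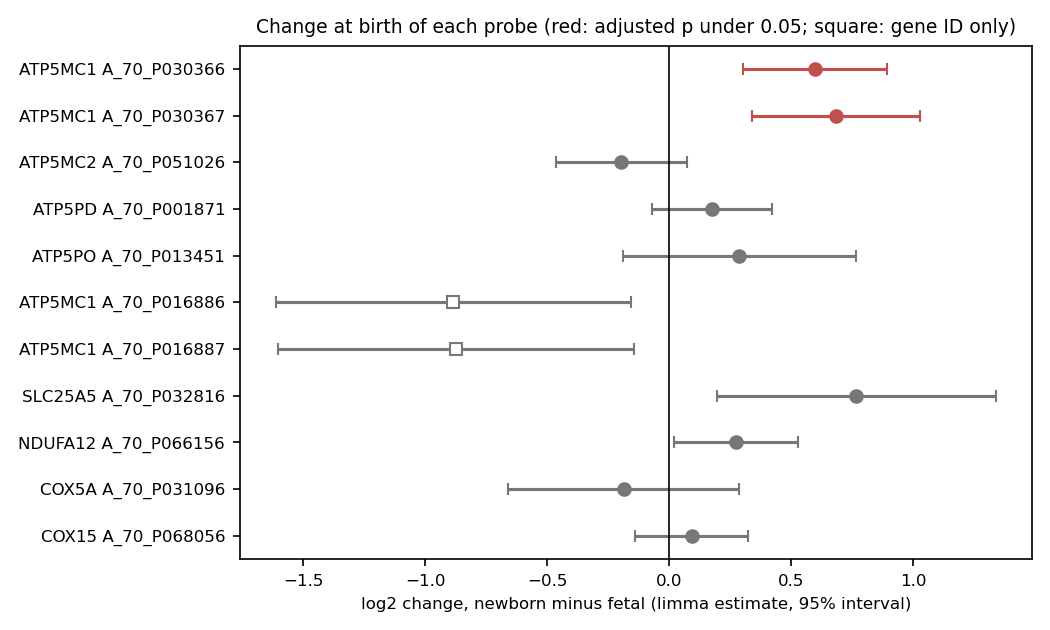
Log2 change, newborn minus fetal, of the 9 member probes and of the 2 probes with the ATP5MC1 gene ID alone (squares). Points are limma estimates, bars are 95% intervals and red marks an adjusted p under 0.05. Both ATP5MC1 member probes lie above 0 in red, the 2 squares lie below 0 in grey, and SLC25A5 has the largest change with a wide interval.

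Values below are scaled log2 signals, the log2 of a probe's background-subtracted signal minus the 75th percentile of its array. They are set against each other only within a probe, since probes differ in how strongly they bind. On ATP5MC1 probe A_70_P030366 the newborn arrays 1 to 7 read 9.76, 10.09, 9.79, 10.27, 10.18, 9.56 and 10.24, against 9.44, 9.10, 9.15, 9.63, 9.50 and 9.49 on fetal arrays 1 to 6. Of the newborn arrays, 6 of 7 lay above every fetal array, and newborn 6 lay among the fetal values. The mean was 9.98 ± 0.28 in newborn and 9.39 ± 0.21 in fetal ventricles (SD, n = 7 and 6). The log2 change was 0.60 (SE 0.138, 95% interval 0.30 to 0.89, limma adjusted p = 0.00791), larger than 93.7% of the changes of all tested probes. Within slide 1 (3 newborn and 4 fetal arrays) it was 0.55 and within slide 2 (4 newborn and 2 fetal arrays) 0.57, with adjusted p = 0.111 and 0.236 in these smaller limma fits, so the call was not made within either slide alone.

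The probe at the end of the reading frame, A_70_P030367, had a value on 5 of the 7 newborn arrays, because the scanner software marked its spot as an outlier on newborn 1 and newborn 2. The remaining newborn arrays 3 to 7 read 9.61, 10.31, 10.26, 10.20 and 10.29, against 9.48, 9.17, 9.12, 9.64, 9.53 and 9.75 on fetal arrays 1 to 6. Here 4 of 5 newborn arrays lay above every fetal array, newborn 6 among them, and newborn 3 lay among the fetal values. The mean was 10.13 ± 0.30 in newborn and 9.45 ± 0.25 in fetal ventricles (SD, n = 5 and 6), a log2 change of 0.68 (SE 0.160, 95% interval 0.34 to 1.03, limma adjusted p = 0.0101). The marked spots read 9.60 on newborn 1 and 9.40 on newborn 2, both within the fetal range. With them kept the change was 0.50 and the call was lost (limma adjusted p = 0.0529), and so it was in the authors' deposited series matrix, where the change was 0.37 (limma adjusted p = 0.0512). Within slide 1, where newborn 3 was the only newborn array with a value, the change was 0.26, and within slide 2 it was 0.62 (limma adjusted p = 0.613 and 0.138).

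The 2 member probes of ATP5MC1 thus place different newborn arrays low: newborn 6 on one and newborn 3 on the other. Over the 11 arrays where both had a value, their deviations from the group means had r = 0.67, a description of arrays that share their RNA and labelling. Taken within each array, the difference between the 2 probes (A_70_P030366 minus A_70_P030367) averaged -0.13 ± 0.30 in newborn and -0.06 ± 0.10 in fetal ventricles (SD, n = 5 and 6), and the groups differed by -0.06 (exact two-sided permutation test over 462 arrangements, p = 0.740). The sign of this small difference turned under several settings, among them keeping the marked spots (0.10) and leaving out newborn 6 (0.06).

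The pair of probes with the ATP5MC1 gene ID alone moved the other way. On A_70_P016886 newborn arrays 1 to 7 read -2.31, -3.49, -1.52, -2.30, -3.26, -1.87 and -2.39, against -1.82, -1.26, -1.21, -2.84, -1.01 and -1.24 on fetal arrays 1 to 6. On A_70_P016887 they read -2.27, -3.54, -1.34, -2.57, -3.32, -1.85 and -2.23 in newborn ventricles, against -1.74, -1.18, -1.34, -2.68, -1.24 and -1.25 in fetal ventricles. On both, newborn 2 and newborn 5 lay below every fetal array, and fetal 4 was the lowest fetal array. The log2 change was -0.88 on both (SE 0.341 and 0.342), and neither passed (limma adjusted p = 0.0738 and 0.0766). Both passed without fetal 4 (-1.14 and -1.10, limma adjusted p = 0.0186 and 0.0288) and without newborn 3 (-1.04 and -1.06, limma adjusted p = 0.0392 and 0.0301), and A_70_P016886 also without newborn 6 (-0.98, limma adjusted p = 0.0498). The change was -0.32 and -0.34 in the authors' deposited series matrix, -0.39 and -0.38 with normexp and -0.42 and -0.44 with normexp on the median background, and none of these passed. Both spread widely within the groups, with residual SDs of 0.69 on each that exceed those of 96.3% and 96.4% of tested probes, against 0.25 and 0.27 for the 2 member probes of ATP5MC1 (47.9% and 55.4%).

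**Figure D2:**
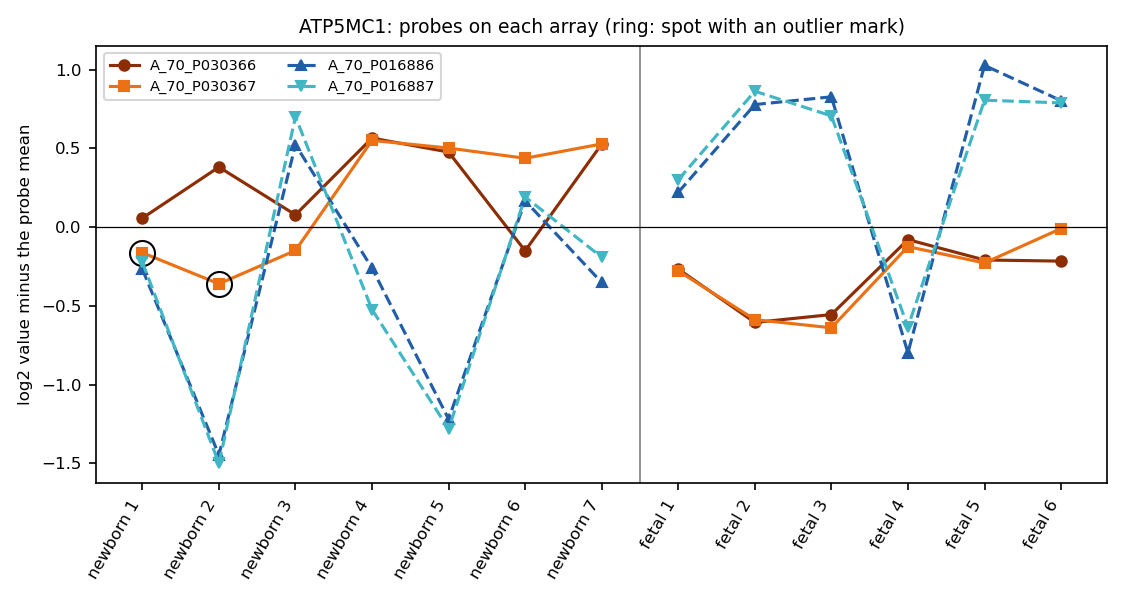
Scaled log2 signal of the 4 probes of ATP5MC1 on each array, newborn 1 to 7 and then fetal 1 to 6, each minus the mean of that probe. Rings mark the spots with an outlier mark on newborn 1 and newborn 2. The 2 member probes (solid lines) lie mostly above 0 in newborn and below 0 in fetal ventricles, and the 2 probes with the gene ID alone (dashed) follow each other, with lows at newborn 2, newborn 5 and fetal 4.

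The near-identical probes A_70_P016886 and A_70_P016887 deviated from their group means together (r = 0.98 over 13 arrays), as 2 readings of the same stretch would. Against the member probe A_70_P030366 their deviations ran opposite, with r = -0.56 and -0.61 over 13 arrays. Within each array, A_70_P030366 minus A_70_P016886 averaged 12.4 ± 0.89 in newborn and 10.9 ± 0.82 in fetal ventricles (SD, n = 7 and 6). The change of this difference was 1.48 (exact two-sided permutation test over 1716 arrangements, p = 0.0146, adjusted p = 0.0291 over the 4 probe pairs compared), with 4 of 7 newborn arrays above every fetal array. The call was lost without fetal 2, fetal 3, fetal 5 or fetal 6 in turn (adjusted p = 0.0556 to 0.0606) and with normexp background correction (1.01, adjusted p = 0.182). Within slide 1 the difference was 1.20 and within slide 2 1.90, and neither passed (exact permutation test, adjusted p = 0.200 and 0.133). Slide 2 has too few arrays for this test to give any p under 0.05, so it could not have passed there. All 4 probe pairs were chosen after their values had been seen, so these p-values describe the arrays and are no independent support. Which transcript the probes with the gene ID alone bind is not stated in the files.

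ATP5MC2 encodes a c subunit from a different locus, and was set against ATP5MC1. On its single probe the newborn arrays ranged from 7.67 through a median of 8.07 to 8.38, against 8.004, 8.32 and 8.52 in fetal ventricles. The groups overlapped over most of their range, with 2 of 7 newborn arrays, newborn 2 and newborn 3, below every fetal array. The mean was 8.11 ± 0.25 in newborn and 8.31 ± 0.18 in fetal ventricles (SD, n = 7 and 6), a log2 change of -0.20 (SE 0.126, limma adjusted p = 0.272). In the authors' deposited series matrix, tested in the same way, it was -0.26 and passed (limma adjusted p = 0.0366), so the call depends on which values are used. Within each array, ATP5MC1 (A_70_P030366) minus ATP5MC2 averaged 1.87 ± 0.35 in newborn and 1.08 ± 0.18 in fetal ventricles (SD, n = 7 and 6), a difference of 0.79 between the groups (exact two-sided permutation test, p = 0.00233, adjusted p = 0.00932 over the 4 pairs, chosen after their values were seen). Of the newborn arrays, 6 of 7 lay above every fetal array, newborn 6 being the exception. The difference stayed past the threshold with each array left out in turn (0.74 to 0.91). It was 0.87 within slide 1 and 0.78 within slide 2 (exact permutation test, adjusted p = 0.0857 and 0.133). On each slide all newborn arrays lay above the fetal arrays of that slide. These tests decide nothing: slide 2 has too few arrays for any p under 0.05, and slide 1 gave the smallest unadjusted p possible.

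The other subunits of the ATP synthase did not pass. ATP5PD, encoding subunit d of the stalk that holds the enzyme still, read 1.54 to 2.20 with a median of 2.01 on newborn arrays, against 1.58 to 1.99 with a median of 1.83 on fetal arrays. Although 5 of 7 newborn arrays lay above every fetal array, newborn 3 lay below all of them, and the log2 change was 0.18 (SE 0.115, limma adjusted p = 0.281). As the strand of this probe was not tested, these values may not report the ATP5PD message. ATP5PO, encoding the subunit that links this stalk to the catalytic head, had values on 4 newborn arrays only, its spots on newborn 1, newborn 2 and newborn 6 being marked as outliers. Newborn 3, 4, 5 and 7 read 6.94, 8.08, 7.82 and 7.73, against 7.55, 7.21, 7.15, 7.60, 7.65 and 6.96 on fetal arrays 1 to 6. Newborn 3 lay below every fetal array and the other 3 newborn arrays above them, and the log2 change was 0.29 (SE 0.219, limma adjusted p = 0.359). With the marked spots kept it was 0.12, and in the authors' deposited series matrix -0.08, so the ATP5PO values give no settled direction.

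**Figure D3:**
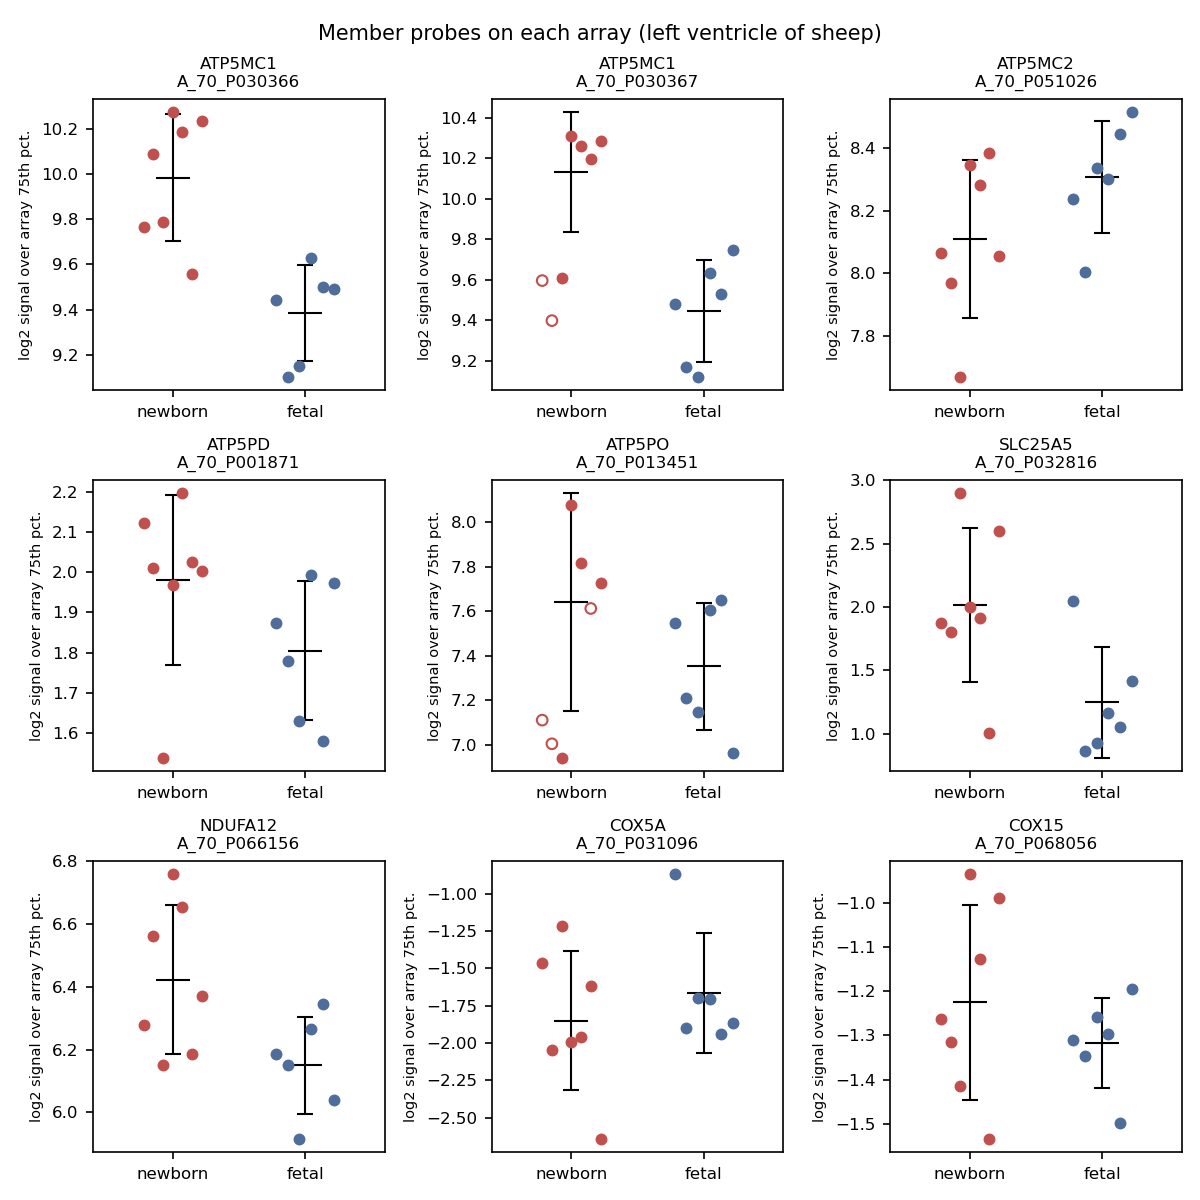
Scaled log2 signal of the 9 member probes, with newborn arrays on the left in red and fetal arrays on the right in blue. Lines are group means with SD, hollow circles are spots with an outlier mark that were left out of means and tests, and each panel has its own axis. The groups overlap in all 9 panels. In the panel of ATP5MC1 A_70_P030366 newborn 6 alone lies within the fetal range.

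SLC25A5 encodes one of the adenine nucleotide translocases, the form typical of dividing cells, while SLC25A4 is the form typical of heart and skeletal muscle. The SLC25A5 probe read 1.88, 1.80, 2.90, 1.996, 1.91, 1.01 and 2.60 on newborn arrays 1 to 7, against 2.05, 0.86, 0.93, 1.16, 1.05 and 1.42 on fetal arrays 1 to 6. Newborn 3 and newborn 7 lay above every fetal array, newborn 6 lay among the low fetal values, and fetal 1 lay among the newborn values. The mean was 2.01 ± 0.61 in newborn and 1.25 ± 0.44 in fetal ventricles (SD, n = 7 and 6). The log2 change of 0.77 (SE 0.268, 95% interval 0.20 to 1.34) was larger than 96.6% of all changes, yet missed the threshold (limma adjusted p = 0.0510), with a residual SD of 0.54 that exceeds that of 92.2% of tested probes. It passed without newborn 6 (0.94, limma adjusted p = 0.00851) and without fetal 1 (0.93, limma adjusted p = 0.0229). With all 13 arrays kept it also passed in the authors' deposited series matrix (0.69, limma adjusted p = 0.0430), among probes well above background on all arrays (limma adjusted p = 0.0404), with a trended and robust eBayes (limma adjusted p = 0.0484) and with normexp on the median background (0.71, limma adjusted p = 0.0466). The call thus turns on single arrays and on the settings. Within slide 1 the change was 0.94 and within slide 2 0.65 (limma adjusted p = 0.159 and 0.395).

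Newborn 6 also stood apart over all probes. On the first principal component, which held 36.8% of the variance, it lay at -9.00, between the other newborn arrays (10.08 to 35.1) and the fetal arrays (-29.1 to -20.4). It was the newborn array nearest the fetal values of SLC25A5 and of ATP5MC1 A_70_P030366, but on ATP5MC1 A_70_P030367 it read 10.20, with the higher newborn arrays. Leaving it out raised the calls among all tested probes to 3116, against 2366 with all 13 arrays, and left the change of the 2 ATP5MC1 member probes called.

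**Figure D4:**
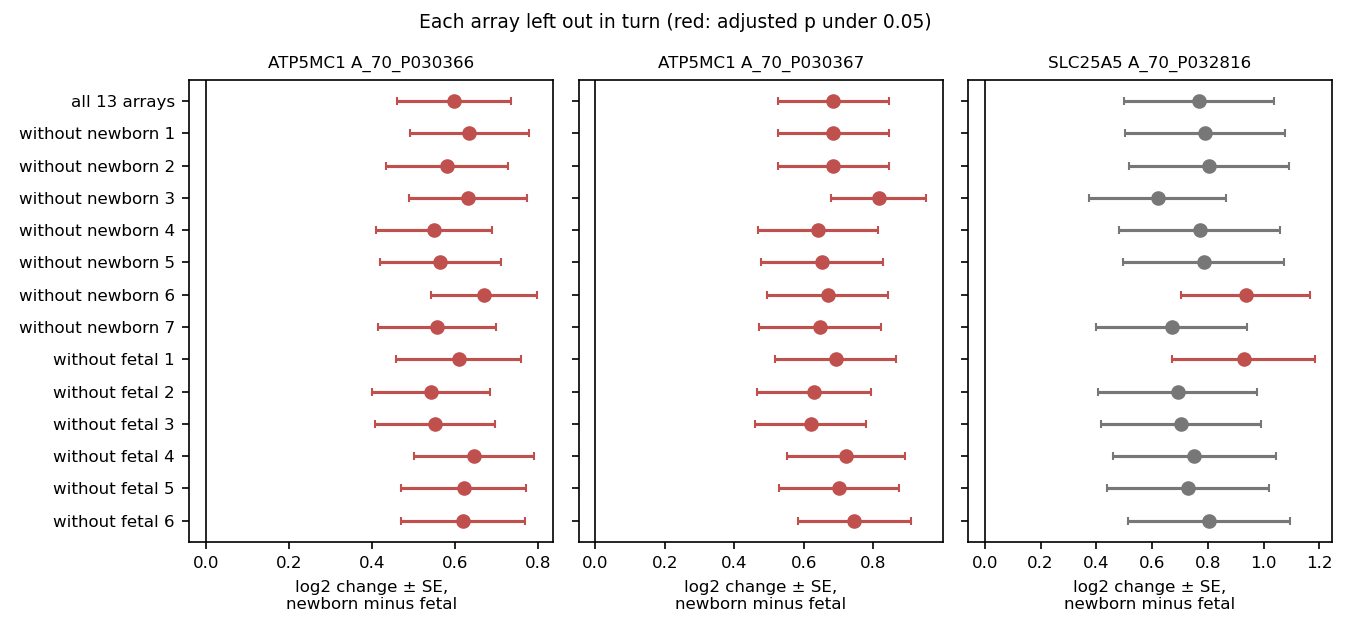
Log2 change, newborn minus fetal, of the 2 ATP5MC1 member probes and of SLC25A5 with all arrays (top) and with each array left out in turn. Points are limma estimates, bars are SEs, and red marks an adjusted p under 0.05. Both ATP5MC1 probes stay red in every row, at 0.54 to 0.67 and 0.62 to 0.82, and SLC25A5 turns red without newborn 6 and without fetal 1.

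The paralogs of SLC25A5 did not pass. SLC25A4 had a log2 change of 0.26 (SE 0.114, limma adjusted p = 0.115), and SLC25A6, a form that is widely expressed in humans, -0.37 (SE 0.169, limma adjusted p = 0.122). SLC25A5 minus SLC25A4 within each array averaged -7.63 ± 0.51 in newborn and -8.14 ± 0.40 in fetal ventricles (SD, n = 7 and 6), and the groups differed by 0.51, which did not pass (exact two-sided permutation test, p = 0.0798, adjusted p = 0.106 over the 4 pairs). It passed without newborn 6 (0.64, adjusted p = 0.0317), without fetal 1 (0.66, adjusted p = 0.0320), with quantile normalization (0.70, adjusted p = 0.0427) and in the authors' deposited series matrix (0.63, adjusted p = 0.0373). Whether the carriers of this family changed unequally is therefore not settled by these arrays.

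Of the respiratory chain itself, no probe passed. The smallest p was that of NDUFA12, though 33.9% of all tested probes had one as small or smaller. NDUFA12, an accessory subunit of complex I, read 6.15 to 6.76 with a median of 6.37 on newborn arrays, against 5.91 to 6.35 with a median of 6.17 on fetal arrays. On its probe 4 of 7 newborn arrays lay above every fetal array, and the log2 change was 0.27 (SE 0.119, 95% interval 0.02 to 0.53, limma adjusted p = 0.110). COX5A, a nuclear-encoded subunit of complex IV, read -2.64 to -1.22 with a median of -1.96 on newborn arrays, against -1.94 to -0.87 with a median of -1.79 on fetal arrays. The change was -0.19 (SE 0.222, 95% interval -0.66 to 0.29, limma adjusted p = 0.568), with fetal 1 far above the other fetal arrays. COX15, which takes part in making the heme A of complex IV, read -1.54 to -0.93 with a median of -1.26 on newborn arrays, against -1.50 to -1.19 with a median of -1.30 on fetal arrays, and its change was 0.09 (SE 0.108, 95% interval -0.14 to 0.32, limma adjusted p = 0.563). ATP5MC1 probe A_70_P030366 had a change of 0.60 (95% interval 0.30 to 0.89). The intervals of COX15 (up to 0.32), COX5A (0.29), NDUFA12 (0.53), ATP5PD (0.42) and ATP5MC2 (0.07) end below the estimate of 0.60, while that of ATP5PO reaches 0.77. The interval of ATP5MC1 itself overlaps those of COX15, NDUFA12, ATP5PD and ATP5PO. Of these genes only ATP5MC2 was compared with ATP5MC1 within arrays, and the strand of the ATP5PD probe was not tested. The COX5A interval still holds a fall as large as -0.66. A probe described in the files as subunit 2 of the alpha subcomplex of cattle NADH dehydrogenase, which has no gene name that meets the rule and was picked after its values were seen, had a change of 0.21 (SE 0.174, limma adjusted p = 0.397).

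Some members deviated from their group means on the same arrays. NDUFA12 followed ATP5PO (r = 0.88 over 10 arrays) and ATP5MC1 A_70_P030366 (r = 0.76 over 13 arrays), and ATP5MC1 A_70_P030367 followed ATP5PD (r = 0.78) and ATP5MC2 (r = 0.76), both over 11 arrays. SLC25A5 had r between -0.48 and 0.40 against the other members, and COX5A between -0.46 and -0.19 against the members other than SLC25A5 (0.24). These are descriptions of arrays that share labelling, slide and scaling. Of the 612 named genes with a tested probe, the profile of ATP5MC1 A_70_P030367, centred on its mean over 11 arrays, was matched most closely by UROD (root mean square difference 0.18), PSME2 (0.18), SLIRP (0.19), SLC25A26 (0.21) and FCGRT (0.23). Each of these genes was itself called higher in newborn ventricles, with log2 changes of 0.50 to 0.75, against 12% of all tested probes. The profile of SLC25A5 over 13 arrays was matched most closely by PPIA (0.28), ARFIP2 (0.32), EEF1E1 (0.33), AIMP2 (0.35) and CFL1 (0.35). Of these, PPIA and EEF1E1 were called higher. Unlike the deviations from group means above, these profiles keep the difference between the groups, which enters the match.

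Other genes of energy metabolism were taken from 10 lists of 74 genes, of which 15 genes in 6 lists had a probe and 16 of their 21 probes could be tested. Of these 16, 1 was called higher and 3 lower in newborn ventricles, near the share over all tested probes (12% higher and 11.1% lower). VDAC1, the porin through which ATP and ADP cross the outer mitochondrial membrane, averaged 2.71 ± 0.22 in newborn and 2.27 ± 0.12 in fetal ventricles (SD, n = 7 and 6), and rose by 0.44 (SE 0.111, limma adjusted p = 0.0121), with 6 of 7 newborn arrays above every fetal array. PPARGC1A, a coactivator of mitochondrial gene programmes, averaged -0.56 ± 0.18 in newborn and -0.16 ± 0.28 in fetal ventricles (SD, n = 7 and 6), and fell by 0.40 (SE 0.130, limma adjusted p = 0.0378). YY1, a transcription factor with respiratory chain genes among its targets, fell on both of its probes, by 0.33 and 0.30 (limma adjusted p = 0.00674 and 0.0118), with 7 of 7 newborn arrays below every fetal array on each. Of all tested probes, 3.51% lay wholly lower in newborn ventricles in this way. CKB, a creatine kinase, differed by 0.24 (limma adjusted p = 0.0906). The tested probes of the antioxidant enzyme SOD2, of V-type proton pumps (ATP6V0C, ATP6V1B2 and ATP6V1E1) and of the regulators GABPA and MYC did not pass. UCP1 and UCP3, uncoupling proteins, and NRF1 were too dim to be tested, and the lists of complex II, cytochrome c, the TCA cycle and electron entry from fat oxidation had no named probe.

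**Figure D5:**
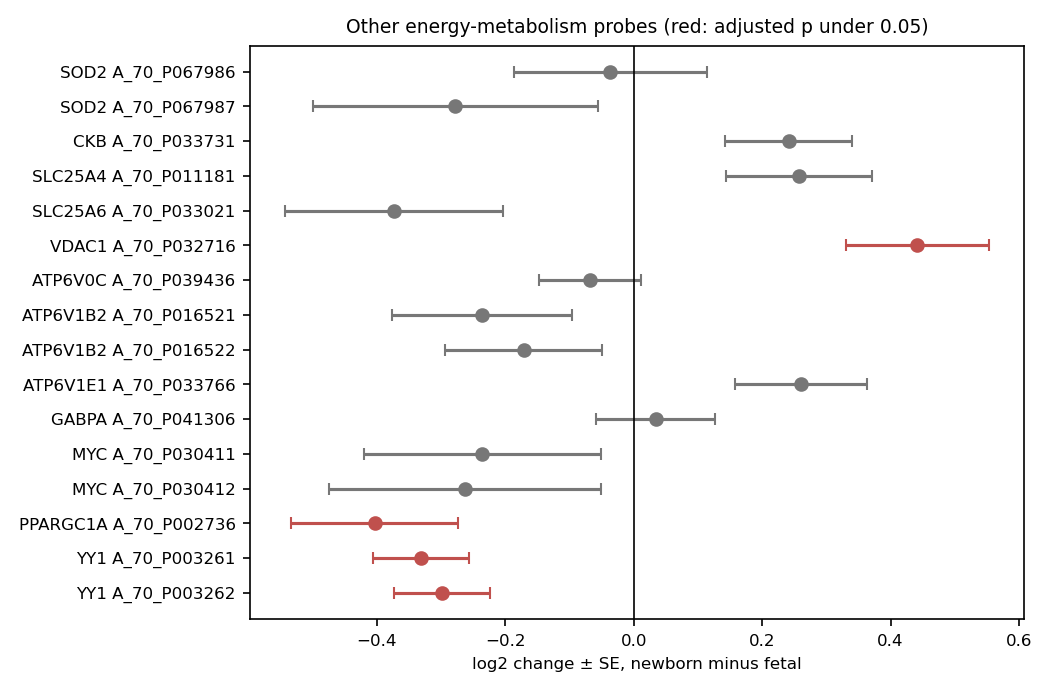
Log2 change, newborn minus fetal, of the 16 tested probes of other energy-metabolism genes. Points are limma estimates, bars are SEs, and red marks an adjusted p under 0.05. VDAC1 lies above 0 in red, PPARGC1A and both YY1 probes lie below 0 in red, and the rest are grey.

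No member passed the test for sex. With sex beside age in the model, 0 of the 9 members passed for males against females (limma, smallest adjusted p = 0.999), while of all tested probes 0.00975% passed. COX15 alone, 1 of the 9 members, came below 0.05 before adjustment, with a male minus female change of -0.22 (SE 0.0987, limma adjusted p = 0.999), and so did 3.23% of all tested probes. With sex in the model the age changes of ATP5MC1 were 0.57 and 0.63 and stayed called (limma adjusted p = 0.0166 and 0.0216).

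Across the 13 arrays the 75th percentile signal lay between 219 and 367, between 62.7% and 71.4% of probes were well above background, no 2 arrays held identical values, and arrays of a group correlated at 0.956 or more. Outlier marks fell on 58 spots of newborn 2, 44 of newborn 1 and 34 of fetal 2, against 6 to 13 on each other array. The dropped spots of ATP5MC1 A_70_P030367 lay on newborn 1 and newborn 2. The precision of all these values is limited by how few arrays there are. Of the heart muscle markers fixed for the check of the tissue, 1 of 15 had a named probe: MB, the muscle oxygen store myoglobin, was well above background on all 13 arrays on both of its probes, with changes of -0.34 and -0.39 (limma adjusted p = 0.139 and 0.0609). Neither atrial marker had a probe, so left ventricle could not be told from atrium. Of the markers of other cells, 4 of 5 tested endothelial probes, 2 of 2 erythroid, 3 of 3 T-cell, 1 of 6 fibroblast and 1 of 1 brown adipocyte (PPARG) were called lower, and 3 of 3 macrophage probes and 1 of 1 smooth muscle probe (CNN1) higher in newborn ventricles, against 11.1% lower and 12% higher over all tested probes. Most of the tested endothelial probes are of KDR, and the T-cell and macrophage probes include repeats of CD3E and CD14. The counts are thus of probes and not of separate marker genes. Some of these probes passed the filter on dim probes mainly through the group where they are high, so neither their counts nor the sums below that hold them are support. The sums also leave out probes too dim to be tested, the CD4 probes among them. CD3D (A_70_P039312) was well above background on 2 of 7 newborn and 5 of 6 fetal arrays, a CD3E probe (A_70_P039467) on 1 of 7 newborn and 5 of 6 fetal arrays, the erythroid AHSP (A_70_P054887) on 2 of 7 newborn and 5 of 6 fetal arrays, and the macrophage FCGR1A on 7 of 7 newborn and 2 of 6 fetal arrays. Summed over the tested probes of a list, the scaled log2 signal ran from 2.10 to 2.80 in newborn and from 2.62 to 2.99 in fetal ventricles for the endothelial markers. It ran from 4.67 to 6.10 in newborn and from 5.75 to 8.01 in fetal ventricles for the erythroid markers. For the T-cell markers it ran from -4.11 to -2.30 in newborn and from -1.96 to -0.43 in fetal ventricles, for the macrophage markers from -1.62 to -0.51 in newborn and from -2.40 to -1.76 in fetal ventricles, and for CNN1 from 3.29 to 6.39 in newborn and from 1.86 to 2.84 in fetal ventricles. UCP1 and FABP4, which mark brown and other fat, were each well above background on 1 of 13 arrays. The skeletal muscle gene TNNC2 ranged from -0.46 to 5.30 in newborn and from -0.72 to 3.84 in fetal ventricles on its first probe, and neither of its probes passed (limma adjusted p = 0.551 and 0.492). The part of these cells in the changes of ATP5MC1 and SLC25A5 was not tested.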

How the data were processed

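Spot intensity values were deposited as scanner files made by Agilent Feature Extraction software, per the file headers. The intensity used is the processed signal, from which the software had subtracted background. The series matrix that the authors deposited has log2 signals, as its values show, for 7041 probes, all 9 members among them. Its scaling is not stated in the labels or files, and it served as an alternative. The dye was Cy3 per the labels' protocols and Cy5 per their label field. The files hold 1 green channel.

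From each array's log2 signal its 75th percentile over non-control spots was subtracted. Spots with an outlier mark were dropped and spots of a probe averaged. Probes well above background on at least 6 arrays, 10255 in number, were tested with limma 3.58.1 in R 4.3.3 (age alone, or age and sex), two-sided, with Benjamini-Hochberg adjustment over all of them at 0.05. Gene names came from the files and RefSeq genes of assembly ARS-UI_Ramb_v3.0, with 1632 probes given 1 name, of which 272 kept the name in the files. A further 24 had several or conflicting names, and 13352 had none. Pairs of probes were compared within arrays by exact permutation tests. In all, 26 other settings were run, and 2 more were added after the values were seen. Named were all probes of ATP5MC1 and SLC25A5, each called member, the probe with the smallest p and the brightest of each complex, and the 5 closest profiles. The fits were tested on simulated data. The members and the lists were chosen with earlier results of these data known. Files were read with version 1.17.8 of data.table, jsonlite 2.0.0 and pandas 2.3.3, and Python 3.11.15 with numpy 2.4.6 and matplotlib 3.10.9 drew the figures.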

Additional observations from a re-analysis of the deposited data

Results flagged for a closer look

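Of 22 sets of values tested for an array far from the rest (each probe within each group of 4 or more), 3 held one, where chance gives about 1 in 20. On ATP5MC1 A_70_P030367 newborn 3 read 9.61, while the nearest of the other 4 newborn arrays with a value read 10.20. On ATP5PD newborn 3 read 1.54, with the nearest newborn array at 1.97. On COX5A fetal 1 read -0.87, with the nearest fetal array at -1.70. For ATP5PO every value of the sexes moved apart: the log2 change, newborn minus fetal, was 0.79 in females and -0.55 in males. The male value rests on newborn 3 alone, since the spots of the other newborn males carried an outlier mark, and the difference between the sexes was not tested.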

How the results depend on the processing

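Under 26 settings, and 2 chosen after seeing the data, the change of ATP5MC1 was positive on both member probes in all 28, from 0.42 to 0.67 on A_70_P030366, called in 25, and from 0.26 to 0.83 on A_70_P030367, called in 23. The count of members called higher, 2 in the fit reported, was 0 with normexp background correction, 0 within slide 1, 0 within slide 2 and 1 with outlier spots kept. With normexp the ATP5MC1 changes were 0.63 and 0.83 (limma adjusted p = 0.423 and 0.152). All probes called, 2366 in the fit reported, were 48 with normexp, 356 within slide 1 and 23 within slide 2, fits of fewer arrays in the last 2, and 2011 with normexp on the median background of each array, which was chosen after seeing the data. With each array left out in turn the calls over all probes ran from 1727 (without fetal 5) to 3116 (without newborn 6). Members called higher were 2, or 3 without newborn 6 or fetal 1, where SLC25A5 joined. SLC25A5 was positive in all 28 settings (0.62 to 0.94) and called in 6, with the authors' deposited series matrix among them (0.69, limma adjusted p = 0.0430). In that matrix members called lower were 1 (ATP5MC2) and not 0, and ATP5MC1 A_70_P030367 was at 0.37 (limma adjusted p = 0.0512). Changes that turned their sign were not called: ATP5PO was -0.0837 in the matrix and -0.436 within slide 1, and COX15 -0.0272 within slide 1. The within-array difference between the ATP5MC1 member probes (-0.0635) turned to 0.0398 with normexp, 0.0399 with normexp on the median background, 0.0925 in the matrix and 0.0951 with outlier spots kept, and ran from -0.139 without newborn 3 to 0.0648 without newborn 6. The cause of these shifts was not tested. The replicate numbers of the titles did not pair the arrays: the same-numbered arrays' deviations had r between -0.07 and 0.05, and 1 of 6 correlated best with its own number. With the replicate block 1326 of all probes were called, the 2 ATP5MC1 probes among them (0.56 and 0.59, limma adjusted p = 0.0324 and 0.0369). Members called for sex stayed at 0 in the settings run. The median change of all tested probes lay within 0.06 of 0 in every setting, and 45.8% to 58.7% of the calls were higher in newborn ventricles. ATP5PO and the second ATP5MC1 probe are limited by missing spots, and the signals of COX5A and COX15 lay below the 75th percentile of their arrays.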
